A study of Mus musculus with 2 samples.

Results

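Eno3 Lad1 Itm2a growth-state cells are a subset of mouse regulatory T (Treg) cells picked out by transcripts of Eno3, the muscle-type enolase of glycolysis. A cell counted as a member when it held at least 1 unique molecular identifier (UMI, a tag that marks 1 captured transcript molecule) of Eno3 and at least 1 UMI of any of 3 partner genes, Lad1, Itm2a or Gsta4. Cells in which 3 or more of the 6 cycling genes Pclaf, Birc5, Mki67, Top2a, Rrm2 and Cdca8 were detected were left out. By this rule 926 of 23896 kept cells were members, 867 of 12217 in the Mito-high and 59 of 11679 in the Mito-low library.

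Both groups were Treg cells stained with MitoTracker, a dye that gathers in mitochondria, and parted by flow cytometry into a bright population (Mito-high) and a dim one (Mito-low). No treatment separates them. The sources used here do not state the tissue, or the strain, sex and age of the animals. Each group gave 1 library made with a 10x Genomics 5′ kit, so no value below has a replicate and nothing was tested. Intervals are 95% intervals that cover counting error only: Poisson for summed UMIs, conditional binomial for ratios and Clopper-Pearson for shares. The kept cells of Mito-high held 89896278 UMIs, 8287025 of them in members. Those of Mito-low held 60526210, only 520015 of them in its 59 members, whose values are therefore the less precise throughout. Kept barcodes shared by the libraries numbered 35, and 7 of these were Mito-high members.

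A T cell that leaves quiescence enlarges before it divides. It makes more ribosomes in the nucleolus, more chaperones to fold new proteins, more purines and pyrimidines, and more mitochondrial proteins imported from the cytosol, and the transcription factor MYC is known for driving many of these genes in activated T cells. Treg cells range from resting cells that recirculate through lymph nodes, marked by Ccr7 and Igfbp4, to effector cells of tissues, marked by Il10, Klrg1, Ccl5, S100a4 and Maf.

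The genes of the rule are given first as a description, since they chose the cells. Eno3 lies at chr11:70657202-70662513 on the plus strand (GENCODE annotation of GRCm38, the genome that the mm10 build named by the submitters' notes stands for). Summed over cells and scaled to 1000000 UMIs of the same cells (CPM), Eno3 stood at 188 CPM in Mito-high members and 9.99 CPM in the other kept cells, and at 138 and 2.43 CPM in Mito-low. Lad1, which encodes the anchoring protein ladinin 1 (chr1:135818598-135833342), stood at 38.5 and 7.49 CPM in Mito-high and at 9.62 and 1.12 CPM in Mito-low. Itm2a, a membrane protein gene known to be switched on in activated and developing T cells (chrX:107397099-107403376), stood at 197 and 65.7 CPM, and at 123 and 24.6 CPM. Gsta4, a glutathione transferase gene that acts on lipid aldehydes (chr9:78182774-78209349), stood at 140 and 33.1 CPM, and at 102 and 6.10 CPM. Srm, the spermidine synthase of polyamine production (chr4:148591503-148594993), was given as a marker of these cells and is the only given marker that the rule did not use. It stood at 36.9 CPM in Mito-high members against 18.9 CPM in other cells, and at 53.8 against 10.0 CPM in Mito-low, where its 28 UMIs came from 8 of the 59 members.

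Eno3 was a sparse transcript outside the members. At least 1 Eno3 UMI was found in 4.96% of the other Mito-high cells (median depth 6013.5 UMIs) and in 1.14% of the other Mito-low cells. In Mito-high it was found in 20.3% of cycling cells (median 16569 UMIs), in 3.20% of resting cells holding Igfbp4 and in 2.22% of effector cells holding at least 2 of Il10, Klrg1 and Ccl5. Members were taken out of the resting and effector groups, while cycling cells with Eno3 and a partner stayed in theirs. The share of cycling cells is therefore not comparable with the other 2 shares. The 18 B cells of that library, which should lack it, held 0 Eno3 UMIs at a median depth of 3069 UMIs. By the limit of 3 counts this allows up to 16.7% of them to hold a UMI and says nothing of how many express the gene, so the background was not measured closely. Among the 867 Mito-high members, 561 held 1 Eno3 UMI, 218 held 2 to 3 and 88 held 4 or more, up to 17. Of the 59 Mito-low members 50 held 1 Eno3 UMI, 8 held 2 to 3 and 1 held 4 or more, so most members in both libraries stand on a single Eno3 molecule.

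The partner genes overlapped in part. Itm2a was the sole partner in 281 Mito-high members, Gsta4 in 188 and Lad1 in 55, and 343 held 2 or 3 partners, 39 of them all 3. In Mito-low the sole partner was Itm2a in 32 members, Gsta4 in 15 and Lad1 in 3, and 9 held more than 1. Just outside the rule lay 449 Mito-high and 133 Mito-low cells with Eno3 but no partner, 691 and 65 cells with 2 or 3 partners but no Eno3, and 94 and 0 cycling cells that met the rest of the rule.

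Members were deeper than other cells, and depth enters the rule because membership needs detected UMIs. The median was 8423 UMIs in Mito-high members against 6013.5 in the other cells, and 6993 against 4662 in Mito-low. The share of mitochondrially encoded (mt-) UMIs was similar, with medians of 3.22% and 3.33% in Mito-high and 3.03% and 3.17% in Mito-low. With 2000 UMIs drawn at random from each cell, a depth that 139 cells of Mito-high and 491 of Mito-low did not reach, Mito-high members and other cells had medians of 963 and 950 genes, and those of Mito-low 1005 and 1028.

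In Mito-high 7.097% of kept cells (6.65 to 7.57%) were members, and in Mito-low 0.505% (0.385 to 0.651%). Part of this gap moved with depth. In Mito-high the share was 2.36% among cells of 2000 to 4000 UMIs, 6.72% at 6000 to 8000, 14.3% at 10000 to 14000 and 17.3% at 14000 to 20000. The corresponding shares in Mito-low were 0.170%, 0.780%, 2.15% and 3.55%. In each of the 6 depth ranges from 2000 to 20000 UMIs the Mito-high interval lay above the Mito-low one. At 20000 UMIs or more, 31 of 264 Mito-high cells (11.7%) and 3 of 21 Mito-low cells (14.3%) were members and the intervals overlapped. Weighted to the depths of Mito-low cells the Mito-high share was 4.75%, and weighted to those of Mito-high cells the Mito-low share was 1.15%. Read from the 2000 drawn UMIs alone, the rule found 174 members among 12078 cells of Mito-high (1.44%, 1.24 to 1.67%) and 11 among 11188 of Mito-low (0.0983%, 0.0491 to 0.176%).

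**Figure D1:**
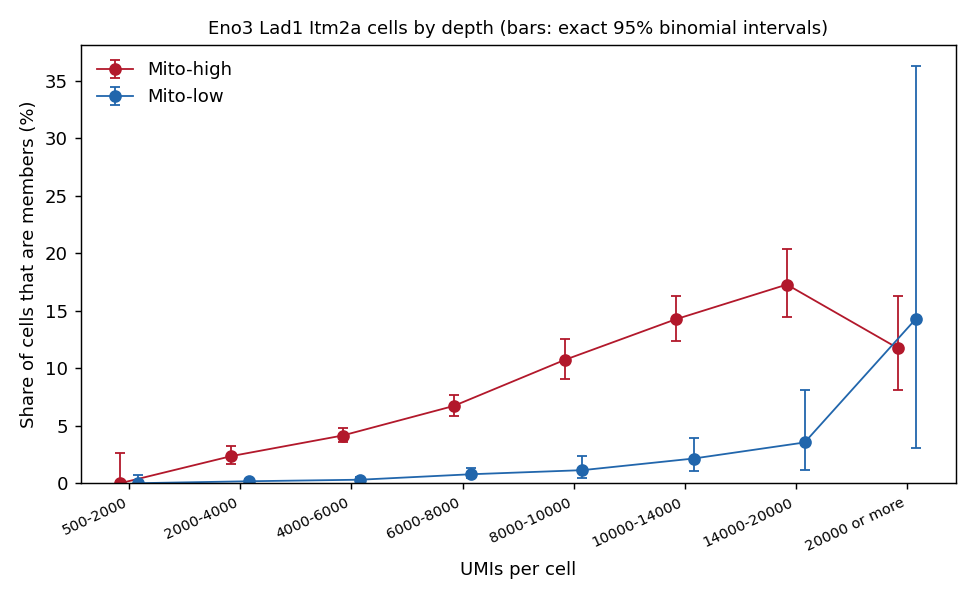
Share of kept cells that met the rule (y axis, percent) by UMIs per cell (x axis), with exact 95% binomial intervals as bars, for the Mito-high (red circles) and the Mito-low library (blue circles). The Mito-high points lie above the Mito-low ones from 2000 to 20000 UMIs, while at 20000 or more the shares are 11.7% and 14.3% and the bars overlap.

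Members were then compared with all other kept cells of their own library, over genes whose mean CPM of the 2 groups was at least 20 and without the 10 genes of the rule. Ratios are log2 ratios of CPM with 1 UMI added to each sum, and a gene is counted as higher or lower from 1.5-fold. In Mito-high 127 of 5289 genes (2.4%) were higher in members and 119 (2.25%) lower, around a median log2 ratio of 0.01. In Mito-low 455 of 5586 genes (8.15%) were higher and 355 (6.36%) lower, around a median of 0.01. When CPM was computed without mt-, ribosomal protein, T cell receptor and immunoglobulin genes, the Mito-low split was 897 higher and 343 lower. A gene at 20 CPM had about 166 UMIs in Mito-high members but about 10.4 in Mito-low members, so counting error spreads the Mito-low ratios more widely. Because members were chosen from the same cells, these ratios describe the members and test nothing.

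Genes of ribosome production were among the lists with high medians. In Mito-high 12 of the 43 measured genes of ribosome biogenesis and the nucleolus were higher and 0 lower, with a median log2 ratio of 0.47. In Mito-low 22 of 44 were higher and 0 lower, with a median of 0.58. Nhp2 and Gar1 are protein subunits of the box H/ACA particles that pseudouridylate ribosomal RNA. Nhp2 stood at 139 CPM in Mito-high members against 74.5 CPM in other cells (log2 ratio 0.90, 0.81 to 0.99) and at 129 against 49.4 CPM in Mito-low (1.40, 1.01 to 1.73). Gar1 stood at 81.7 against 47.6 CPM and at 53.8 against 31.5 CPM. Both genes were higher in members of both libraries. Mybbp1a, a nucleolar protein that takes part in ribosomal RNA processing, stood at 63.2 against 34.4 CPM (0.88) and at 78.8 against 33.0 CPM (1.29). Nop16, a further nucleolar protein, stood at 36.0 against 20.97 CPM and, on 14 UMIs in Mito-low members, at 26.9 against 13.6 CPM. The abundant nucleolar proteins followed with smaller ratios. Npm1 (nucleophosmin) stood at 2118 against 1403 CPM (0.59) in Mito-high and 1529 against 899 CPM (0.77) in Mito-low. Ncl (nucleolin) stood at 867 against 552 CPM (0.65) and 850 against 602 CPM (0.50). Single Mito-low members gave 12 of 67 UMIs of Nhp2, 9 of 41 of Mybbp1a, 98 of 795 of Npm1 and 66 of 442 of Ncl.

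Modification of transfer and ribosomal RNA showed the same direction over fewer genes. Mettl1, the catalytic subunit of the 7-methylguanosine transferase of transfer RNA (chr10:127041414-127046365), stood at 49.1 against 17.7 CPM in Mito-high (log2 ratio 1.47, 1.31 to 1.63) and was found in 26.9% of members against 8.98% of other cells. In Mito-low its 14 UMIs gave 26.9 against 14.3 CPM (1.01, 0.04 to 1.67). Of the genes measured in its list, 3 of 6 were higher in Mito-high (median 0.45) and 3 of 7 in Mito-low (median 0.57), with 0 lower in both. Small nucleolar RNA host genes had medians of 0.31 and 0.21, with 0 of 12 and 0 of 11 past 1.5-fold.

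Chaperones of the cytosol moved in parallel. Of 23 measured in Mito-high, 8 were higher and 0 lower (median log2 ratio 0.48), and of 22 in Mito-low, 10 were higher and 0 lower (0.54). Hsp90ab1, an HSP90 chaperone, stood at 2225 against 1361 CPM (0.71) in Mito-high and 1983 against 1242 CPM (0.68) in Mito-low. Its cochaperone Fkbp4 stood at 98.3 against 56.6 CPM (0.80) and at 80.8 against 52.0 CPM (0.67). Ruvbl1, an ATPase that assembles RNA and protein particles, stood at 55.75 against 33.6 CPM and at 50.0 against 28.5 CPM. All 3 passed 1.5-fold in both libraries.

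Among genes of mitochondrial import and folding, 6 of 25 were higher in Mito-high members (median 0.39) and 8 of 23 in Mito-low (median 0.33), with 0 lower in both. Hspd1 encodes the HSP60 chaperonin of the mitochondrial matrix and Hspe1 its lid. Hspd1 stood at 241 against 124 CPM in Mito-high (0.96, 0.89 to 1.03), where 58.9% of members and 38.8% of other cells held a UMI, and at 256 against 97.6 CPM in Mito-low (1.40, 1.13 to 1.64). Hspe1 stood at 773 against 432 CPM (0.84) and at 546 against 311 CPM (0.82). The pair was thus higher in both. Single Mito-low members gave 31 of 133 UMIs of Hspd1 and 43 of 284 of Hspe1. Over the 18 alternatives the Mito-low ratio of Hspd1 kept its sign but fell as low as 0.03. C1qbp, a matrix protein needed for mitochondrial translation, stood at 167 against 90.5 CPM (0.89) and at 92.3 against 57.0 CPM (0.72). Phb, a scaffold protein of the inner membrane, stood at 46.8 against 23.9 CPM (0.97) in Mito-high and at 32.7 against 24.1 CPM on 17 UMIs in Mito-low (0.52, −0.34 to 1.13), an interval that spans 0.

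The respiratory chain itself differed little. Nuclear subunits of complex I had a median of 0.15 with 0 of 41 higher in Mito-high, and of 0.19 with 4 of 41 higher in Mito-low. Subunits of ATP synthase had medians of 0.17 in both, and 1 of 17 was higher in each. That gene was Atp5g1, a subunit of the proton-conducting ring, at 421 against 268 CPM (0.65) in Mito-high and 338 against 206 CPM (0.72) in Mito-low. The 13 mt-encoded protein genes had medians of 0.06 and 0.03 and 0 past 1.5-fold, and summed to 33150 against 34520 CPM in Mito-high. Mitochondrial ribosomal proteins stood between, with medians of 0.23 and 0.29 and with 1 of 69 and 16 of 68 higher.

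Nucleotide synthesis was higher in part. In each library 3 of 20 measured genes were higher and 1 lower, with medians of 0.42 in Mito-high and 0.32 in Mito-low. Nme1, a nucleoside diphosphate kinase, stood at 420 against 257 CPM (0.71) in Mito-high and 258 against 168 CPM (0.63) in Mito-low. Impdh2, which commits purines to guanine nucleotides, stood at 137 against 88.2 CPM (0.64) and 127 against 54.0 CPM (1.25). The gene that was lower in Mito-high was Samhd1, which degrades deoxynucleotides, at 211 against 318 CPM (−0.59), while in Mito-low it stood at 273 against 340 CPM (−0.31). Serine and one-carbon genes had medians of 0.27 and 0.67, with 1 of 8 and 5 of 8 higher.

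The translation machinery proper was less apart. Cytosolic ribosomal proteins, which summed to 322900 CPM in Mito-high members against 310600 CPM in the other cells, had a median of 0.07 with 0 of 82 past 1.5-fold, and of 0.20 with 1 of 80 higher in Mito-low. Translation factors had medians of 0.19 and 0.33, with 0 of 27 and 5 of 27 higher, and aminoacyl-tRNA synthetases 0.28 and 0.32, with 1 of 19 and 6 of 19. Eif5a, the factor that carries the polyamine-derived residue hypusine, stood at 898 against 574 CPM (0.65) and 638 against 420 CPM (0.61). Odc1, the first enzyme of polyamine synthesis, was nearly level at 310 against 318 CPM and 617 against 718 CPM. Thus Srm and Eif5a were higher in members while Odc1 was not, and the polyamine list had medians of 0.07 and 0.25.

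The other genes of glycolysis differed little. Eno1, the enolase used by most tissues, stood at 90.1 against 92.6 CPM in Mito-high (log2 ratio −0.04, −0.15 to 0.07) and at 115 against 101 CPM in Mito-low (0.22, −0.20 to 0.56). Glycolysis and glucose uptake had medians of 0.17 and 0.21, with 0 of 16 past 1.5-fold in Mito-high and with 3 of 15 higher and 2 lower in Mito-low. Among glutathione genes other than Gsta4, the dehydroascorbate reductase Gsto1 was the member past 1.5-fold in Mito-high. It stood at 66.9 against 31.6 CPM (1.08) there and at 42.3 against 14.1 CPM on 22 UMIs (1.65) in Mito-low, and the list had medians of 0.00 and 0.15.

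**Figure D2:**
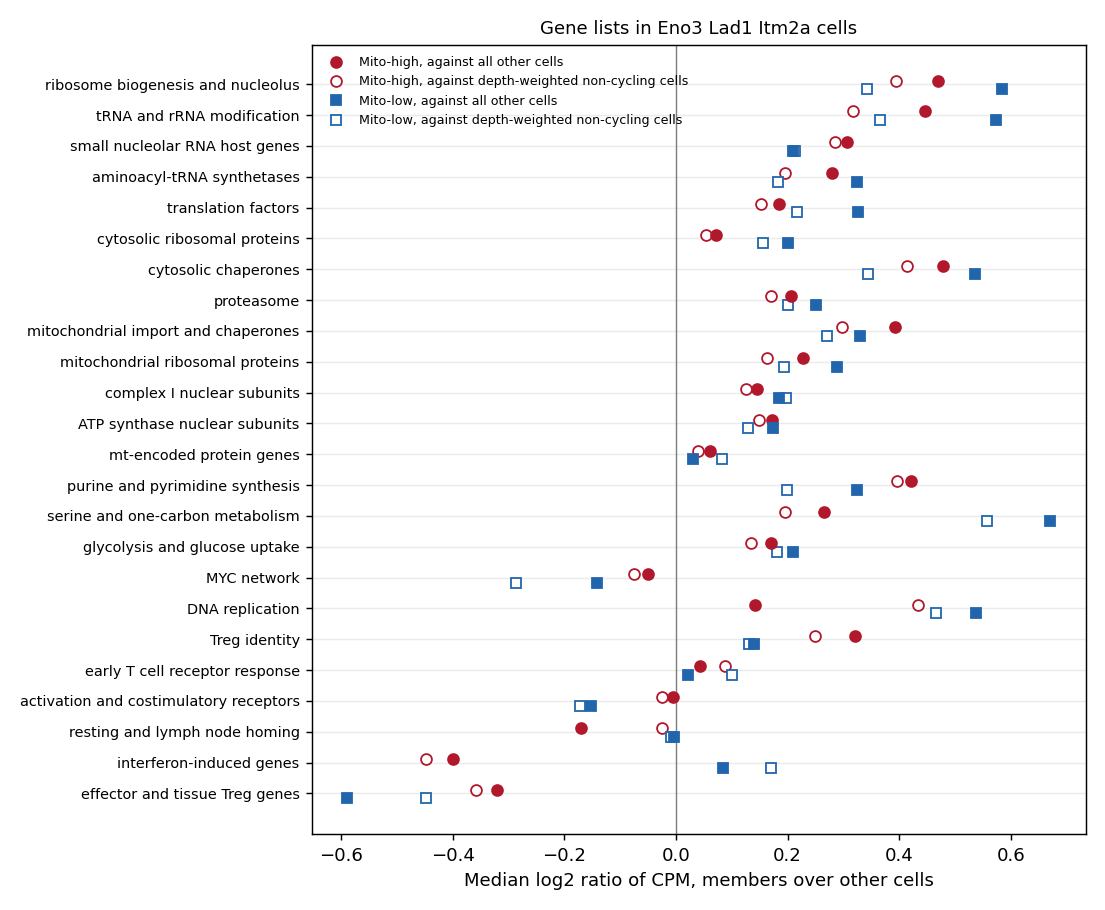
Median log2 ratio of CPM, members over other cells (x axis), for 24 gene lists (y axis), in Mito-high (red circles) and Mito-low (blue squares); filled points compare with all other kept cells and open points with non-cycling other cells weighted to the members' depth. Ribosome biogenesis (0.47 and 0.58) and cytosolic chaperones (0.48 and 0.54) lie far to the right in both libraries, cytosolic ribosomal proteins and mt-encoded genes near 0, and effector genes (−0.32 and −0.59) to the left.

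Against non-cycling cells weighted to the members' depth, ribosome biogenesis, cytosolic chaperones and mitochondrial import kept their direction with smaller medians. Ribosome biogenesis then had a median of 0.40 in Mito-high and 0.34 in Mito-low, cytosolic chaperones 0.41 and 0.34, and mitochondrial import 0.30 and 0.27. Over all genes, 70 of 5274 (1.33%) were then higher in Mito-high and 417 of 5596 (7.45%) in Mito-low, and 112 (2.12%) and 349 (6.24%) were lower. Of ribosome biogenesis genes 4 of 45 were higher in Mito-high and 12 of 45 in Mito-low, of mitochondrial import genes 3 of 25 and 3 of 23, and of cytosolic chaperones 2 of 23 and 1 of 22. Of nucleotide synthesis genes 0 of 20 and 2 of 20 were higher and 1 lower in each. Most chaperones called higher above, Hsp90ab1 (0.54 and 0.34) among them, thus fell under 1.5-fold at matched depth, as did Npm1 (0.43 and 0.46), Ncl (0.53 and 0.23), Hspe1 (0.58 and 0.39) and Nme1 (0.55 and 0.27). Past it in both libraries were Nhp2 (0.66 and 0.87), Mybbp1a (0.64 and 0.81), Hspd1 (0.68 and 0.86), Bmyc (1.25 and 1.32) and Nkg7 (1.97 and 1.57). Nhp2, Hspd1, Bmyc and Nkg7 are among the genes chosen for passing 1.5-fold in both libraries against all other cells. Their agreement between libraries follows in part from that choice. Under another alternative the Mito-low ratio of Hspd1 fell to 0.03.

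Transcripts of MYC itself were under 1.5-fold higher in both libraries. Myc stood at 53.8 against 45.7 CPM in Mito-high (0.24, 0.09 to 0.38) and 0.04 on the depth-weighted comparison. In Mito-low it stood at 28.8 against 23.1 CPM on 15 UMIs (0.41). Over the alternatives the ratio ranged from −0.09 to 0.39 in Mito-high and from 0.31 to 1.56 in Mito-low. The MYC network list, which holds its partner Max and the antagonists of the Mxd family, had medians of −0.05 and −0.14 with 0 genes higher. Bmyc, a MYC relative that has part of the MYC protein without its DNA-binding end, was set apart. It lies at chr2:25706739-25707721 and stood at 287 against 110 CPM in Mito-high (1.38, 1.31 to 1.45), with a UMI in 70.6% of members and 38.5% of other cells, and at 227 against 95.4 CPM in Mito-low (1.26, 0.98 to 1.51).

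The promoters of the higher genes were searched for CACGTG, the canonical site of MYC with MAX, whose letters read the same on both strands. Of 18 genes looked up by symbol, 16 had an entry in the RefSeq promoters of GRCm38.p6. In this table, taken from 250 bases before to 50 after the start site, 8.09% of 27025 genes held it in at least 1 promoter. Of the genes measured in both libraries, 520 of 4080 with a promoter held it (12.8%). It was found in 13 of 54 genes (24.1%) higher in both and in 6 of 41 (14.6%) lower in both. The share was 26.9% of 52 ribosome biogenesis genes, 26.9% of 26 mitochondrial import genes, 38.5% of 13 RNA modification genes and 0 of 17 cytosolic chaperone genes, so lists that moved alike differed in it. A match is a run of letters and no measured binding. The windows below show where the letters lie, in capitals, before the start sites of 3 genes that were higher in Mito-high members, on the strand of the gene and 5′ to 3′. They are chr1:55088288-55088353 (minus strand) for Hspd1, chr11:95666707-95666760 (plus) for Phb and chr11:93968273-93968320 (minus) for Nme1, and the site begins 80, 232 and 18 bases before the start site.
Hspd1: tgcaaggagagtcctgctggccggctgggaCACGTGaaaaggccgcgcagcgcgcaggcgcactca
Phb: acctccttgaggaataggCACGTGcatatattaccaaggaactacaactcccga
Nme1: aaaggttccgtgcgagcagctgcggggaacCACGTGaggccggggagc
Mettl1 and Mybbp1a held the letters just after their start sites, as did S100a6, which was lower in members. Eno3, Lad1, Itm2a, Bmyc, Nkg7, Nhp2, C1qbp, Mif, Ncl and S100a4 held no CACGTG in these windows. The 250 bases before the start site of Eno3, chr11:70656926-70657175 on the plus strand, are shown because this gene defines the cells.
Eno3: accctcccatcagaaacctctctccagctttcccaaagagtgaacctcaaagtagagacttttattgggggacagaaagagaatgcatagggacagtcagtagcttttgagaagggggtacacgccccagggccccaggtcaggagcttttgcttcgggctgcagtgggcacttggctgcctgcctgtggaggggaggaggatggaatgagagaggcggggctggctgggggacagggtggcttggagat

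Among the named genes the largest Mito-high ratio was that of Nkg7, which is on no growth list. Nkg7, a membrane protein of cytotoxic granules known from natural killer and CD8 T cells (chr7:43437073-43438249), stood at 171 against 40.0 CPM in Mito-high (log2 ratio 2.10, 2.005 to 2.186) and at 233 against 63.7 CPM in Mito-low (1.88, 1.60 to 2.13). It was found in 27.7% of Mito-high members and 9.25% of other cells, and in 35.6% and 10.8% in Mito-low. In Mito-low a single member gave 26.4% of its 121 UMIs, and other genes, Srm (2.47), Irf8 (1.98) and Ryr2 among them, had larger ratios there. Of the other genes past 1.5-fold in both libraries, Ryr2, a calcium release channel, stood at 44.6 against 19.8 CPM (1.18) in Mito-high and 152 against 32.4 CPM (2.25) in Mito-low. Hmgn3, a nucleosome-binding protein, stood at 60.2 against 30.8 CPM and 40.4 against 19.4 CPM. Mif, a cytokine and tautomerase, stood at 651 against 348 CPM (0.90) and 465 against 251 CPM (0.90). For Mif, 1 Mito-low member gave 42 of the 242 UMIs.

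**Figure D3:**
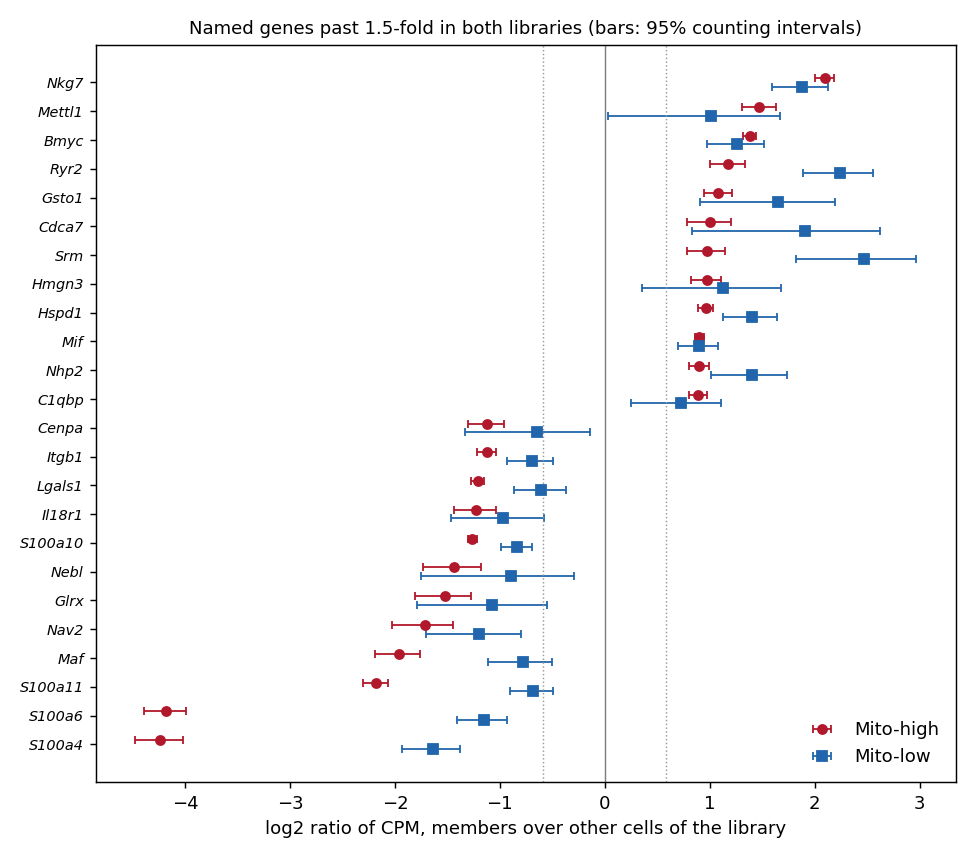
Log2 ratio of CPM, members over other cells of the same library (x axis), for 24 genes past 1.5-fold in both libraries, taken from both ends of the Mito-high order (y axis), in Mito-high (red circles) and Mito-low (blue squares), with 95% counting intervals as bars and dotted lines at 1.5-fold. Nkg7 lies at 2.10 and 1.88, while S100a4 lies at −4.23 in Mito-high and −1.63 in Mito-low.

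Markers of cytotoxic cells were measured beside Nkg7. Cd160 stood at 24.3 against 8.59 CPM in Mito-high and 13.5 against 8.83 CPM in Mito-low, and the transcription factor Eomes at 3.50 against 0.833 CPM in Mito-high and at 0 UMIs in Mito-low members. Cd8a had 2 UMIs, Gzma 1 and Gzmk 2 over all Mito-high members, and Cd8b1 had 60 (7.24 against 8.96 CPM). Cd160 was found in 26.3% of the 240 Mito-high members with Nkg7 and in 10.4% of the 627 without. In other cells with and without Nkg7 it was found in 11.9% and 3.61%. In members Eomes was found in 1.67% with Nkg7 (4 cells, 0.46 to 4.21%) and 2.71% without (17 cells, 1.59 to 4.31%). Cd8b1 was found in 4.58% with Nkg7 (11 cells, 2.31 to 8.05%) and 6.86% without (43 cells, 5.01 to 9.13%). For both genes the intervals overlapped, so no direction can be read. In other cells Eomes was found in 0.952% and 0.408% and Cd8b1 in 7.91% and 5.51%. Cells with Nkg7 were deeper, with medians of 10240 against 7664 UMIs in members and 8232 against 5867 in other cells. Of the 6 CD8 T cell markers, summed levels were 35.6 against 19.5 CPM in Mito-high and 13.5 against 15.7 CPM in Mito-low, and at least 2 of them were found in 1.96% of Mito-high members and 0.520% of other cells. Of the 7 markers of natural killer and innate lymphoid cells, Ncr1, Klre1, Klra8, Tyrobp and Fcer1g were at 0 UMIs in members of both libraries. Klrb1c had 5 UMIs in Mito-high members and 0 in Mito-low members, and Il18rap 25 and 4, below its CPM in other cells of both libraries. The part of these cells in the Nkg7 level was not tested.

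Members carried the T cell and Treg transcripts their label calls for. Treg markers summed to 3968 against 3477 CPM in Mito-high and 4906 against 4977 CPM in Mito-low. Foxp3, the lineage factor, was at 24.5 against 25.9 CPM and 26.9 against 41.1 CPM, with an interval that spans 0 in both. Ikzf2 (Helios) stood at 1801 against 1277 CPM (0.50) in Mito-high and at 1771 against 1900 CPM (−0.10) in Mito-low. Itgb8, an integrin chain that activates TGF-beta, stood at 44.8 against 23.8 CPM (0.91) in Mito-high and at 53.8 against 44.9 CPM (0.31, −0.33 to 0.80) in Mito-low. Itgb8 and Swap70 were the 2 of 15 Treg identity genes past 1.5-fold in Mito-high. Of 8 skeletal muscle genes, Ckm, Acta1, Myh1, Myh4, Pvalb and Mb were at 0 UMIs in members of both libraries, while Tnnt3 had 6 UMIs and Actn3 1 UMI in Mito-high members and 0 in Mito-low members.

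Activation genes split. Early T cell receptor response genes had medians of 0.04 and 0.02 and activation receptors of −0.01 and −0.15, and 2 of the 19 receptors measured in Mito-high were higher and 2 lower. Those higher were the costimulatory receptor Tnfrsf9 (4-1BB), at 452 against 230 CPM (0.97, 0.92 to 1.02), and Cd200, at 77.4 against 47.9 CPM (0.69). In Mito-low they stood at 663 against 474 CPM (0.49) and 100 against 48.7 CPM (1.07). Those lower were Icos, at 66.5 against 171 CPM (−1.36), and Ly6a, at 21.8 against 59.6 CPM (−1.44). Bcl2l1, a survival gene, stood at 134 against 68.8 CPM in Mito-high (0.96) but at 76.9 against 87.3 CPM in Mito-low (−0.15, −0.67 to 0.26). Irf8 was higher in both, at 30.9 against 18.1 CPM and 80.8 against 20.9 CPM, with 13 of its 42 Mito-low UMIs in 1 cell.

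As a list, effector and tissue genes had medians below 0. Of 16 measured in Mito-high, 6 were lower and 2 higher (median −0.32), and of 26 in Mito-low, 13 were lower and 2 higher (median −0.59). Nkg7 is on this list and was higher in both. The other gene higher in Mito-high was the chemokine receptor Ccr8, at 32.2 against 18.0 CPM (0.84). S100a4, a calcium-binding protein of migrating cells (chr3:90603771-90606045), stood at 19.8 against 375 CPM in Mito-high (−4.23, −4.47 to −4.02) and at 213 against 668 CPM in Mito-low (−1.63, −1.93 to −1.38). Its neighbour S100a6 (chr3:90612882-90624181) stood at 24.5 against 447 CPM (−4.18) and 279 against 624 CPM (−1.15), where 1 cell gave 56.6% of the 145 UMIs of Mito-low members. A UMI of S100a4 was found in 4.84% of Mito-high members and 15.7% of other cells, and in 18.6% and 43.0% in Mito-low. Maf, a transcription factor of Il10-producing T cells, stood at 22.1 against 86.6 CPM (−1.96) and 179 against 311 CPM (−0.78). The integrin chain Itgb1 stood at 117 against 257 CPM and 333 against 542 CPM. The galectin Lgals1 stood at 245 against 568.5 CPM and 262 against 400 CPM. These 5 genes were lower in Mito-high members, and in Mito-low all 5 had ratios below 0 that were closer to 0. Ccl5 was found in more members than other cells, 8.07% against 4.70% in Mito-high and 30.5% against 19.75% in Mito-low, although its CPM was lower, at 19.1 against 23.7 and 213 against 340.

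Members were no simple copy of the resting state either. Of 21 resting and lymph node genes measured in Mito-high, 4 were lower and 0 higher (median −0.17), and the depth-weighted median was −0.02. Igfbp4, a marker of resting Treg cells, stood at 38.3 against 84.2 CPM (−1.13), the interleukin-7 receptor gene Il7r at 99.7 against 155 CPM (−0.63), and Ccr7, the lymph node homing receptor, at 580 against 436 CPM (0.41). In Mito-low, where resting cells are few, Ccr7 stood at 448 against 128 CPM (1.81, 1.61 to 1.99), and 3 of 18 genes of the list were higher and 2 lower. Interferon-induced genes had a median of −0.40 in Mito-high, with 3 of 9 lower, and of 0.08 in Mito-low, with 2 of 12 higher.

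Cell cycle lists depend on the comparison, since the rule removed cycling cells from the members but not from the others. DNA replication genes had a median of 0.14 in Mito-high against all other cells and of 0.43 against depth-weighted non-cycling cells, and of 0.54 and 0.47 in Mito-low. Mcm2 and Mcm5, subunits of the replicative helicase, stood at 32.2 against 18.5 CPM and 42.4 against 27.4 CPM in Mito-high. The G2 and M phase list turned its sign, from −0.20 to 0.37, and Stmn1 went from −0.87 to 0.58. Over the alternatives that gave a value, the Mito-high median of DNA replication ranged from −0.14 to 0.84. That of G2 and M phase ranged from −1.35 to 0.58. Cdk4, the kinase of G1, stood at 109 against 75.9 CPM (0.52) and 98.1 against 52.2 CPM (0.94).

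The libraries were compared gene by gene. They share no cells, but the same rule chose the members in both. Of 5073 genes measured in both, 111 were higher in Mito-high members and 344 in Mito-low members, and 65 were shared, 58.6% of the first list and 18.9% of the second. The lower lists held 111 and 310 genes with 51 shared, 45.9% and 16.5%. Of the 111 genes higher in Mito-high, 105 (94.6%) had a ratio above 0 in Mito-low, and of the 111 lower, 96 (86.5%) had one below 0. The median log2 ratio of all 5586 genes measured in Mito-low was 0.01, so ratios above and below that value were equally many. Members were deeper than other cells in both libraries, and the part of depth in these shares was not tested. Among the 65 genes higher in both, 26 (40%) belonged to 12 lists of growth genes, which hold 300 of 5072 measured genes (5.92%) when a symbol listed on more than 1 row is counted once. These are the lists of ribosome biogenesis, polyamines, RNA modification, aminoacyl-tRNA synthetases, translation factors, cytosolic chaperones, mitochondrial import, nucleotide synthesis, one-carbon metabolism, small nucleolar RNA host genes, mitochondrial ribosomal proteins and the proteasome. Among the 51 lower in both, 0 belonged to them. The gene lists were chosen with earlier results of these data known. These shares use the comparison with all other cells, were not computed at matched depth, and test nothing.

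Levels differed with the number of Eno3 UMIs within Mito-high. Since members with more Eno3 UMIs were deeper, the split was repeated in cells of 6000 to 12000 UMIs, a range chosen after the depths were seen. Ribosome biogenesis genes then summed to 3797 CPM in non-cycling cells with neither Eno3 nor a partner, 4476 CPM with a partner alone and 4439 CPM with Eno3 alone. Members reached 5217 CPM with 1 Eno3 UMI, 5657 with 2 to 3 and 7399 with 4 or more. Cytosolic chaperones went from 4447 CPM in cells with neither through 6110 and 6654 to 8227 CPM, and mitochondrial import from 2591 through 3063 and 3374 to 4014 CPM. Single genes were steeper. Nkg7 stood at 36.6 CPM with neither (34.0 to 39.4), 101 CPM in members with 1 Eno3 UMI (88.9 to 114), 202 CPM with 2 to 3 (175 to 232) and 626 CPM with 4 or more (547 to 713). Mettl1 stood at 12.2, 29.0, 48.0 and 105 CPM in the same order, and Bmyc at 82.2, 271, 385 and 566 CPM. Igfbp4 ran the other way, at 95.1, 57.6, 21.01 and 5.52 CPM. Eno1, at 86.6, 91.0, 79.0 and 82.8 CPM, and cytosolic ribosomal proteins showed no such order. The 3 member groups held 293, 113 and 41 cells, with median depths from 8322 to 9292 UMIs, against 7422.5 in cells with neither, so a part of the depth difference remained.

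**Figure D4:**
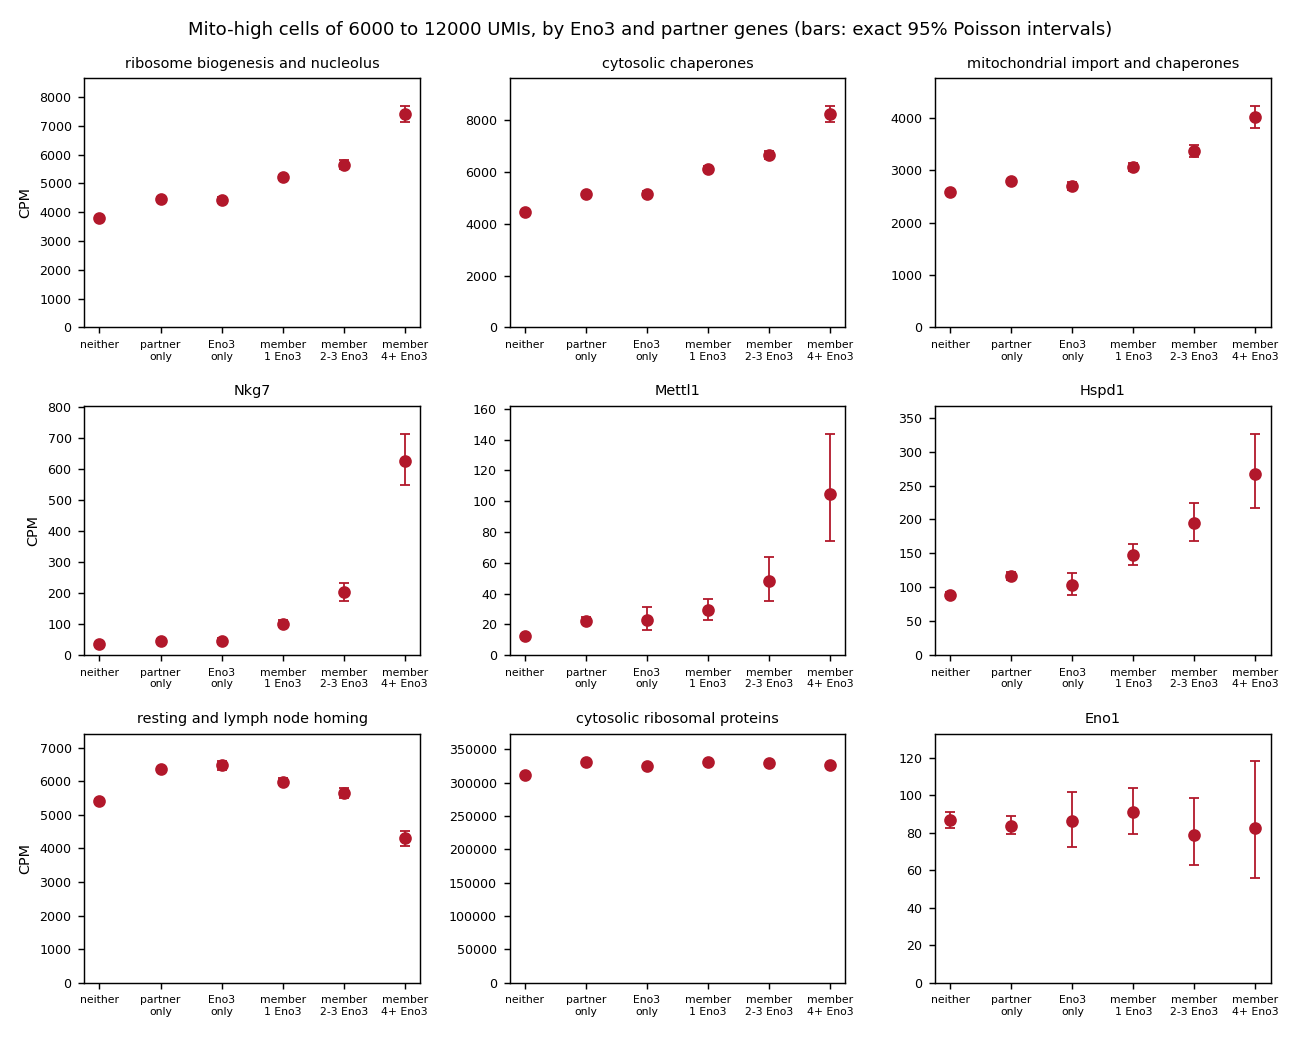
Summed CPM (y axes, from 0) of gene lists and single genes in Mito-high cells of 6000 to 12000 UMIs, grouped by Eno3 and partner genes (x axes), with exact 95% Poisson intervals as bars. Ribosome biogenesis climbs from 3797 CPM in cells with neither to 7399 CPM in members with 4 or more Eno3 UMIs and Nkg7 from 36.6 to 626 CPM, while Eno1 stays between 79.0 and 91.0 CPM.

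Levels differed with the partner gene as well. Over all depths, the 55 Mito-high members with Lad1 as sole partner had 9512 CPM summed over the ribosome biogenesis and nucleolus list, those with Itm2a alone 5590 CPM, and those with Gsta4 alone 4392 CPM, near the 4332 CPM of all other cells. Their median depths were 7916, 7538 and 7235 UMIs. The corresponding Mito-low levels, on 3, 32 and 15 cells, were 9078, 5491 and 3917 CPM, against 3726 CPM in other cells. Members holding Gsta4 alone thus lay close to all other cells in these genes, and those holding Lad1 or Itm2a above them. These other cells include 561 cycling cells in Mito-high and 38 in Mito-low, which the rule kept out of the members. Cells just inside the rule, with 1 Eno3 UMI and 1 partner, had 5285 CPM in Mito-high, and cells just outside it 4838 CPM with Eno3 and no partner and 4944 CPM with 2 or 3 partners and no Eno3.

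Members were not a cluster of their own. When all kept cells were clustered without the rule genes, 43.4% of Mito-high members and 24.5% of other Mito-high cells fell in cluster 3, led by Eno3, Srm, Mettl1, Gsta4 and Rangrf. Cluster 0, led by Ly6c1 and Igfbp4, held 35.6% of members and 43.7% of others, and cluster 1, led by Ryr2, B3galt1 and C2cd4b, 19.6% and 13.6%. Of the 59 Mito-low members 55.9% fell in cluster 1, 13.6% in cluster 2, led by Lilrb4a, Il10 and Klrg1, and 11.9% in cluster 3. On average 22.4% of the 15 nearest neighbours of a Mito-high member were members, against 6.38% for other Mito-high cells, and 5.31% against 0.956% in Mito-low.

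The growth difference was not the same in each cluster. Within cluster 3, 376 Mito-high members had a median ribosome biogenesis ratio of 0.57 over the other cells of the cluster, with 21 of 49 genes higher against 376 of 5014 (7.5%) of all genes. Within cluster 1, 170 members had 0.49, with 16 of 40 higher against 172 of 5442 (3.16%). Within cluster 0, 309 members had 0.07, with 0 of 35 higher against 132 of 5167 (2.55%). Nkg7 was higher in all 3, at log2 ratios of 2.41 in cluster 0, 1.59 in cluster 1 and 2.59 in cluster 3, as was Bmyc at 0.86, 1.09 and 1.06. S100a4 turned its sign: it was lower in clusters 1 and 3 (−1.34 and −1.94) and higher in cluster 0 (1.09, on 33 UMIs), where it was scarce. The effector and tissue list had medians of 0.37 in cluster 0, −0.23 in cluster 1 and 0.05 in cluster 3, so its lower level in members was not found within each cluster. Cluster 2 and cluster 4, the latter led by Ccr10, Ccr2 and S100a4, held 0.231% and 0.807% of Mito-high members against 2.76% and 9.74% of other cells. In each of the 3 clusters the members were deeper, for example with medians of 8994 against 6031 UMIs in cluster 3. In Mito-low, cluster 1 held 33 members with a ribosome biogenesis median of 0.54, and clusters 0 and 3 held 6 and 7, too few to describe.

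Members of the libraries were last set against each other. Mito-high members were higher in 271 of 5457 genes (4.97%) and lower in 912 (16.7%), and the median of all genes was −0.14, so ratios are best read relative to that shift. The split was 536 higher and 547 lower with TMM scaling, 459 and 603 with the median set to 0, and 521 and 1006 on CPM without mt-, ribosomal protein, T cell receptor and immunoglobulin genes. Both the sort and the library differ between these groups and cannot be told apart. Ribosome biogenesis was close to the median of all genes, at −0.10 (0.08 with TMM scaling), with 3 of 48 genes higher and 3 lower. Cytosolic chaperones (0.16), mitochondrial import (0.15) and cytosolic ribosomal proteins (0.26) lay above the median of all genes. Purine and pyrimidine synthesis lay further above it, at 0.32 with 7 of 20 higher. Hspd1 (241 and 256 CPM) and Nhp2 (139 and 129 CPM) had intervals that span 0, whereas C1qbp (167 and 92.3 CPM, 0.83) and Nme1 (420 and 258 CPM, 0.69) were higher in Mito-high members.

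The identity lists lay far apart. Effector and tissue genes had a median of −1.75, with 13 of 19 lower in Mito-high members and 0 higher, and resting and lymph node genes 0.65, with 10 of 20 higher and 1 lower. Il10, the suppressive cytokine, stood at 2.53 CPM in Mito-high members (21 UMIs) and 100 CPM in Mito-low members (52 UMIs, 51.9% of them in 1 cell), a log2 ratio of −5.26. The inhibitory receptor gene Klrg1 stood at 1.21 and 44.2 CPM (−5.12), with 47.8% of the 23 Mito-low UMIs in 1 cell. S100a6 (−3.51), the chemokine Ccl5 (−3.49), S100a4 (−3.44) and Maf (−3.03) followed. Satb1, a chromatin organiser of resting T cells, stood at 516 and 179 CPM (1.51, 1.23 to 1.84) and Id3, an inhibitor of E proteins, at 78.9 and 26.9 CPM (1.45). Between the other cells of the libraries the same ratios were −2.86 for Il10, −2.68 for Klrg1, −0.48 for S100a6, −3.84 for Ccl5, −0.83 for S100a4, −1.85 for Maf and 1.75 for Satb1. For these 7 genes members thus had the direction of the libraries they came from. In the main setting the gaps were larger for Il10, Klrg1, S100a6, S100a4 and Maf and smaller for Ccl5 and Satb1. Over the alternatives the ratio between members ranged from −4.19 to −0.52 for S100a4, −6.17 to −2.44 for Il10 and −3.31 to −1.72 for Maf. Some of these values are smaller gaps than the main ones between other cells. The remaining genes kept their order. Single Mito-low members gave 38 of 111 UMIs of S100a4 and 19 of 93 of Maf. Activation receptors (median −0.40, 7 of 19 lower) and interferon-induced genes (−0.85, 6 of 10 lower) were lower in Mito-high members too. RNA quality genes, among them Malat1 and Gm42418, moved with these groups at a median of −0.62. They summed to 10780 CPM in members of Mito-high and 17060 CPM in those of Mito-low, and their part in the differences was not tested. Members over other cells, their median was −0.14 in Mito-high and −0.45 in Mito-low.

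**Figure D5:**
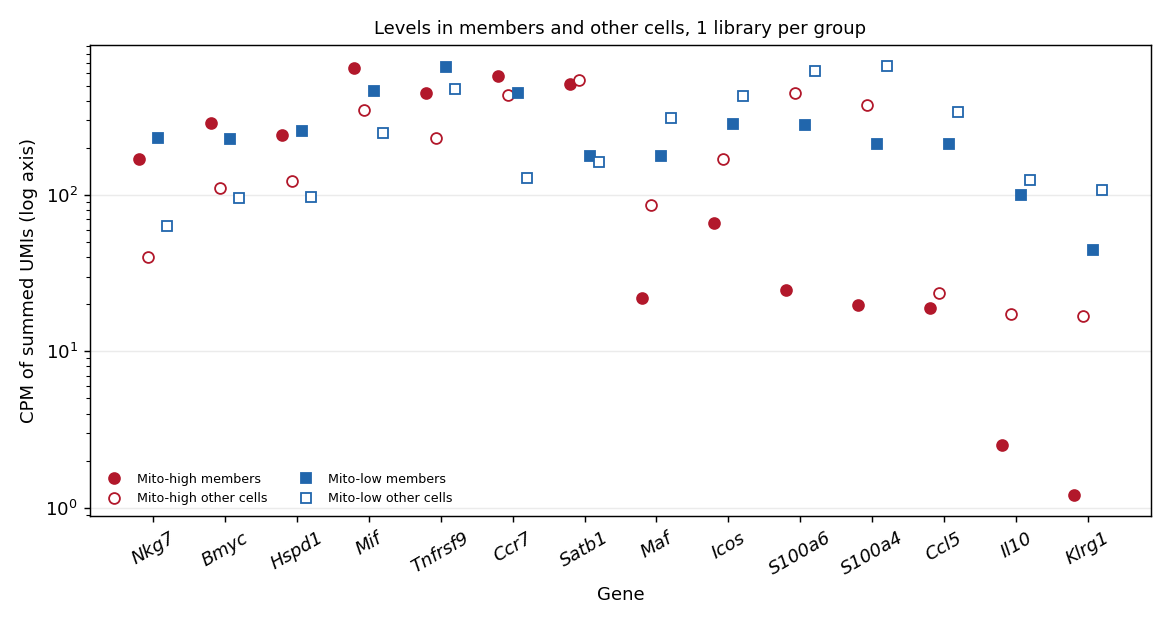
CPM of summed UMIs (y axis, log scale) of 14 genes (x axis) in members (filled) and other cells (open) of the Mito-high (red circles) and Mito-low libraries (blue squares), 1 library each. Nkg7, Bmyc, Hspd1 and Mif, which are among the genes chosen for passing 1.5-fold in both libraries, lie higher in members of both. Il10 and Klrg1 lie at 2.53 and 1.21 CPM in Mito-high members and at 100 and 44.2 CPM in Mito-low members.

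Signs of barcodes with more than 1 cell were counted without a doublet caller. At least 2 different T cell receptor beta V segments, at 1 or more UMI each, were found in 2.31% of Mito-high members (1.41 to 3.54%) and 2.23% of other cells, or 3.61% of non-cycling cells at the members' depth. In Mito-low 4 of 59 members (6.78%) and 6.02% of depth-weighted cells held them. At the planned 2 or more UMIs each, 0 of 867 Mito-high members and 6 of 11350 other cells did. Only 28.5% of Mito-high members and 26.4% of other cells held any such segment. These counts can therefore miss barcodes with 2 cells. At least 2 B cell markers were found in 3.23% of Mito-high members and 3.18% of others, and at least 2 myeloid markers in 0.231% and 0.581%.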

How the data were processed

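Single-cell RNA of MitoTracker-sorted mouse Treg cells was read from 1 library per group. The deposited matrices hold raw UMI counts, which the authors made with Cell Ranger 7.1.0 on mm10, per the submitters' processing notes. Of 12352 Mito-high and 11901 Mito-low barcodes, those with under 500 genes or over 20% mt- UMIs were left out, and no doublet caller was run. UMIs were summed over cells with Python 3.11.15 and scaled to CPM, and TMM factors came from edgeR 4.0.16 with no count test. Ratios carry a pseudocount of 1 UMI. Cells were clustered with scanpy 1.11.5. The ratio code was tested on simulated data. Members, gene lists and markers were chosen with earlier results of these data known. Named genes were the 12 highest and 12 lowest ratios at either comparison, at least 10 UMIs in each group, up to 4 genes a list and a fixed set. The highest and lowest of members over other cells also had to pass 1.5-fold in the same direction in Mito-low. For these genes the agreement between libraries follows from the choice. Ccr8 and the cytotoxic genes Gzma, Gzmk and Cd160 belong to fixed lists. In all, 18 alternatives were run. Each group is 1 library, so intervals and limits on a count of 0 (3 counts) cover counting error only.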

Additional observations from a re-analysis of the deposited data

How the results depend on the processing

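The share of members, 7.097% in Mito-high and 0.505% in Mito-low, follows the rule: with at least 2 Eno3 UMIs it was 2.505% and 0.0771%, with at least 2 partner genes 2.81% and 0.0771%, after thinning 1.44% and 0.0983%, and in cells of 6000 to 12000 UMIs 8.996% and 1.02%. With no cycling gene allowed it was 5.61% in Mito-high. Counts of genes past 1.5-fold depend on the rule, the scaling and above all on the floor on CPM. In Mito-high the 127 higher genes became 374 with at least 2 Eno3 UMIs, 289 with 2 partner genes, 79 with no cycling gene, 231 after thinning, 230 against non-cycling cells, 70 against these weighted to the members' depth, 195 without technical genes (mt-, ribosomal, receptor and immunoglobulin), 58 from 50 CPM, 14 from 200 CPM and 3362 with no floor. The 119 lower genes became 268, 189 and 215 with 2 Eno3 UMIs, 2 partner genes and thinning, and 52, 13 and 1224 from 50 CPM, from 200 CPM and with no floor. In Mito-low the 455 higher genes became 2153 with 2 Eno3 UMIs, 1713 with 2 partner genes, 2259 after thinning, 808 at 6000 to 12000 UMIs, 897 without technical genes, 1006 with a pseudocount of 5, 139 from 50 CPM, 22 from 200 CPM and 3362 with no floor. The 355 lower genes became 754 with 2 partner genes, 576 after thinning, 107 with a pseudocount of 5, and 144, 28 and 864 from 50 CPM, from 200 CPM and with no floor. Between members of the libraries, the 271 higher genes became 458 with 2 Eno3 UMIs, 496 with 2 partner genes, 414 after thinning, 536 with TMM, 521 without technical genes, 459 with the median at 0, 92 with a pseudocount of 5, and 113, 22 and 706 from 50 CPM, from 200 CPM and with no floor. The 912 lower genes became 2516, 1923 and 2509 with 2 Eno3 UMIs, 2 partner genes and thinning, 547 with TMM, 603 with the median at 0, 1492 with a pseudocount of 5, and 365, 52 and 4187 from 50 CPM, from 200 CPM and with no floor. The floor of 200 CPM and a pseudocount of 1 CPM were chosen after seeing the data, and the latter kept all 6 counts within 1.5 times.

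Of the values past 1.5-fold, 11 of 103 for genes and 1 of 6 for lists turned their sign under some alternative. Smaller ones did so more often, 29 of 50 for genes and 56 of 108 for lists, among them Hspd1 (−0.41 to 0.80) and ribosome biogenesis (−0.51 to 0.42) between members of the libraries. The cause was not tested. Only the values past 1.5-fold that turned are named next. Against other Mito-low cells these were Cenpa (0.54 with 2 Eno3 UMIs), Hmgn3 (−0.21), Il18r1 (0.16) and Nebl (0.91) after thinning, Nme1 (−0.17 at 6000 to 12000 UMIs), and Igfbp4, which had 1 UMI (0.78 with 2 Eno3 UMIs, 0.79 with 2 partner genes, 1.51 after thinning, 0.92 with a pseudocount of 5). Between members of the libraries these were the resting list (−0.037) and Tnfrsf4 (0.11) with 2 Eno3 UMIs, Ptp4a3 (−0.52) and Sh3bp5 (−0.028) after thinning, Myc (−0.47 after thinning, −0.052 at 6000 to 12000 UMIs) and Srm (1.30 with 2 Eno3 UMIs, 0.25 with no cycling gene, 0.33 after thinning). The ribosome biogenesis median stayed between 0.40 and 0.65 in Mito-high over all 18 alternatives. In Mito-low it stayed between 0.27 and 1.09 over the 17 that gave a value. That of cytosolic chaperones stayed between 0.36 and 0.69 in Mito-high and between 0.05 and 0.90 in Mito-low over all 18. No paired analysis was possible because each group is 1 library. Depth limits the Mito-low members, which held 520015 UMIs.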

Other observations

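Copper handling, named in the title of the series, differed little in these cells. Of the list, 0 of 9 measured genes were past 1.5-fold in Mito-high members (median log2 ratio −0.02), and in Mito-low 1 of 10 was lower and 0 higher (−0.08). Atox1, the chaperone that carries copper to the secretory pathway, stood at 161 against 172 CPM in Mito-high and 148 against 176 CPM in Mito-low. Ccs, which hands copper to superoxide dismutase, stood at 67.5 against 86.2 CPM and 55.8 against 75.5 CPM. Fdx1, a mitochondrial ferredoxin, stood at 55.1 against 40.0 CPM and 34.6 against 27.4 CPM. The importer Slc31a1 was below the floor, at 13.8 against 11.3 CPM and 13.5 against 12.1 CPM. The Mito-low gene past 1.5-fold was the metallothionein Mt1, at 13 UMIs in members. Of survival and death genes 1 of 14 was higher in Mito-high (Bcl2l1) and 3 of 14 in Mito-low, among them the death receptor Fas, at 78.8 against 47.0 CPM there and 90.0 against 64.8 CPM in Mito-high. Cholesterol synthesis genes had medians of −0.01 and 0.27 with 0 of 6 and 0 of 5 past 1.5-fold. Genes of dissociation and heat stress had medians of −0.13 and −0.19.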
